A study of Mus musculus with 12 samples.

Results

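The 8 genes described here encode proteins of glutamate synapses in the cerebellar cortex: the delta receptor Grid1, the delta receptor partner Grid2ip, the cerebellin Cbln1 and the metabotropic glutamate receptors Grm2, Grm3, Grm4, Grm5 and Grm7. They were chosen by symbol from a written list, matched to the gene identifiers of the count table through mouse GENCODE names, and all 8 were found among the 54752 genes of the table. The rule used no measured value, although the genes were chosen with earlier results of these data known. None of the 8 passed the test in any of the 3 comparisons between diets, so the account below is one of levels, of how tightly each gene was measured, and of how large a change the data still allow.

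Delta receptors belong to the ionotropic glutamate receptor family by sequence but act mainly as synaptic organisers. Cbln1, a secreted protein related to complement C1q and made by granule cells, binds neurexins on the presynaptic side and delta receptors on the postsynaptic side, and so holds the synapse between parallel fibres and Purkinje cells together. Metabotropic receptors signal through G proteins: group I, which includes Grm5, through phospholipase C and calcium, and group II (Grm2, Grm3) and group III (Grm4, Grm6, Grm7, Grm8) through inhibition of adenylyl cyclase and of transmitter release.

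Poly(A) RNA was sequenced from the cerebellar cortex of 12 male wild-type (WT) mice aged 12 weeks, F1 hybrids of C57BL6J and FVB, with 4 libraries for each of 3 diets. AL mice ate ad libitum. Mice on dietary restriction (DR) received 1 portion a day just before dark and were killed early in the dark period without that day's meal, so that restriction and the missed meal cannot be told apart. The third group received a ketogenic diet (KD), whose composition, duration and choice of RNA samples are not given in the sources used here. Only cortex was taken, from the midline as well as from more lateral parts of the cerebellum, without its deep nuclei. For AL and DR the sequenced RNA samples had been picked from more animals on RNA quality. Time of dissection differed between mice and is not in the labels. Libraries held 31712084 to 40798644 counts, and all 18 pairs of libraries of the same diet were further apart than counting noise makes 2 libraries (a chi-square of 4.6 to 10.52 per gene, where noise gives about 1). The tests below set the difference between diets against the spread between these mice. In bulk tissue, fewer cells of a type and less RNA per cell cannot be told apart.

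The labelled tissue was checked against marker genes. Summed markers of granule cells (6 genes) lay between 3467 and 3961 CPM (counts scaled to a common library size) over the 12 libraries, and those of Purkinje cells (7 genes) between 3224 and 4036 CPM. Choroid plexus, a neighbouring tissue, was low, with a sum of 4 markers of 1 to 9.59 CPM and all 4 were below 1 CPM on average on AL and on DR and 2 of the 4 (Folr1 and Kcne2) on KD. Its transthyretin gene Ttr was called higher on KD against DR, from 0.762 ± 0.0739 to 3.41 ± 3.24 CPM (SD, n = 4) with overlap of the libraries. Of the other lists, molecular layer interneurons (6 genes, 1365 to 1522 CPM), unipolar brush cells (3 genes, 288 to 348 CPM), microglia (5 genes, 40.5 to 50.5 CPM) and endothelium (4 genes, 119 to 143 CPM) had 0 genes called by edgeR in each of the 3 comparisons. Oligodendrocyte markers (5 genes) summed to 2055 to 2655 CPM on AL, 1932 to 2408 CPM on DR and 2281 to 2488 CPM on KD, with 1 gene lower on DR against AL and 2 higher on KD against DR.

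Levels between genes were compared per length, as RPKM (CPM per kilobase of exon). Cbln1 was the most abundant of the 8 at a mean of 213 RPKM over the 12 libraries, above 99.5% of the genes tested, followed by Grm4 at 126 RPKM and Grid2ip at 24.4 RPKM. Next came Grm2 at 6.54 RPKM, Grm3 at 4.64, Grid1 at 3.89 and Grm7 at 3.42 RPKM, close to the middle of all genes tested, and Grm5 stood last at 0.41 RPKM. Cbln1 exceeded Grm5 519-fold on this scale. The order was the same in the mean of each diet. Neighbours in it were apart in every library, except that the ranges of Grm3 (3.3 to 5.25 RPKM) and Grid1 (3.53 to 4.35 RPKM) overlapped, with Grm3 higher in 11 of 12 libraries, and so did those of Grid1 and Grm7 (2.92 to 3.91 RPKM), although Grid1 was the higher in 12 of 12.

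**Figure D1:**
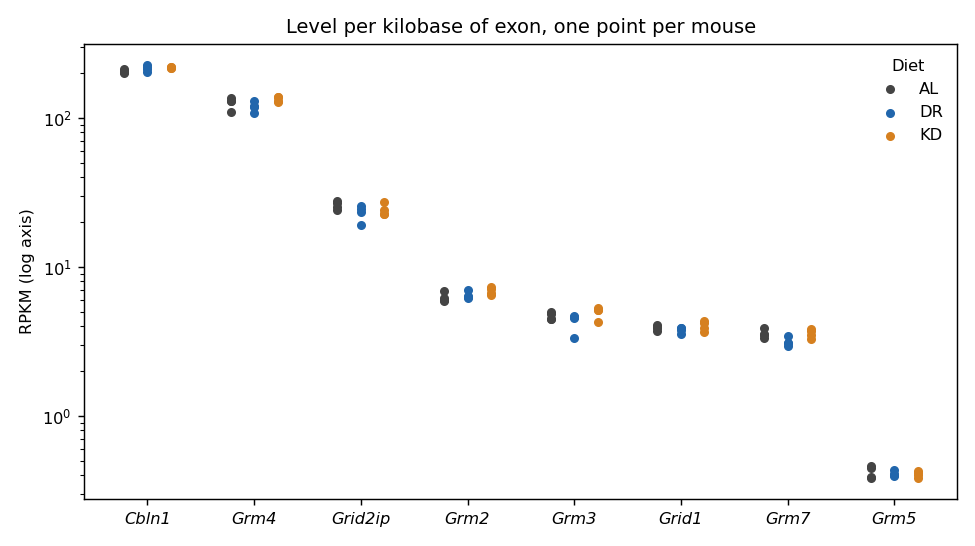
Level of each of the 8 genes in RPKM on a log axis, 1 point per mouse, with AL, DR and KD side by side. The genes span from 0.38 RPKM (Grm5) to 228 RPKM (Cbln1), and for each gene the 3 diets lie on top of each other compared with the distance between most genes.

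Among the 4 cerebellin genes, Cbln1 took 39.7% ± 2.59 (SD, n = 4) of the summed RPKM on AL, 38% ± 1.54 on DR and 41.7% ± 1.36 on KD. Nearly all of the rest was Cbln3, which granule cells make and which forms complexes with Cbln1. Cbln2 and Cbln4 had 0 to 8 counts per library.

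Diets were compared in pairs with the quasi-likelihood test of edgeR across all genes that passed the low-count filter, and a gene was called at an adjusted p under 0.05. All 8 genes passed the filter in each comparison. Against AL, DR gave 0 of 8 called, where 3.06% of the 19052 genes tested were called. KD against AL gave 0 of 8, and 0% of the 19036 genes tested were called. With KD against DR the count was again 0 of 8, beside 4.94% of 19087 genes. DESeq2 also called 0 of 8 in each comparison, and at an unadjusted p under 0.05 edgeR held 2 of the 8 in each. Over all genes tested, 18% were under that p on DR against AL, 4.87% for KD against AL and 18.7% for KD against DR. The KD and DR comparisons share libraries with each other, and each is given by its own values below.

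Fitted changes of the 8 genes were small. Their median log2 fold change was -0.06 on DR against AL, with 6 of 8 below 0, while the median of all genes tested was 0.004. For KD against AL the median was 0.06 (0 for all genes), with 3 of 8 below 0, and for KD against DR it was 0.09 (-0.002 for all genes), with 1 of 8 below 0 (Grm5, joined by Cbln1 at -0.01 when only library size was used for scaling). Libraries of the 2 diets were free of overlap in 0 of 8 genes on DR against AL, where 10.9% of all genes tested were free of overlap, and in 0 of 8 for KD against DR, where 11.8% were. For KD against AL it was 1 of 8 (Cbln1, higher on KD), beside 2.96% of all genes in either direction and 1.41% in that direction.

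**Figure D2:**
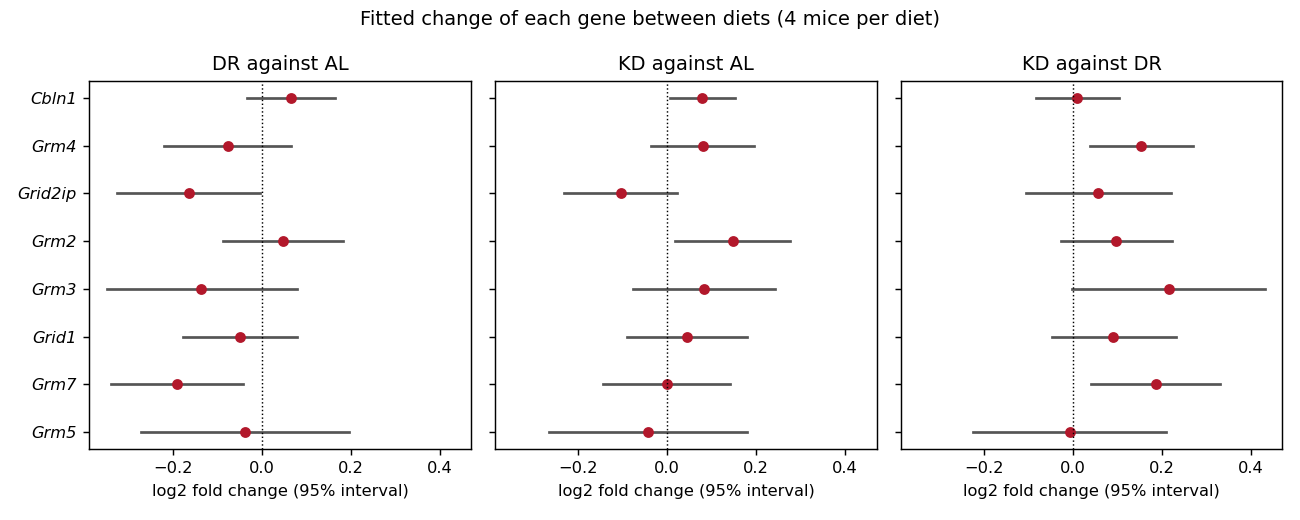
Fitted log2 fold change of each gene in the 3 comparisons, with bars for the 95% interval (4 mice per diet). Intervals that leave out 0 are those of Grid2ip and Grm7 on DR against AL, Cbln1 and Grm2 for KD against AL, and Grm4 and Grm7 for KD against DR, none of them with an adjusted p under 0.05 by edgeR.

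Cbln1 (ENSMUSG00000031654.16) lies on the minus strand of chr8:87468405-87472609 of GRCm38.p6, and no other gene shares its exons. The 4 AL libraries held 647, 604, 632 and 620.4 CPM, those on DR 692, 648, 615 and 667 CPM, and those on KD 667, 657, 664 and 654 CPM. Every KD library was above every AL library, whereas the DR libraries spread over both. KD libraries were very tight, with a coefficient of variation of 0.891% where counting alone gives 0.638%, against 2.93% on AL and 4.92% on DR. The log2 fold change was 0.08 for KD against AL (standard error 0.03, 95% interval 0.01 to 0.15, adjusted p = 0.994 by edgeR). The estimate was 0.07 on DR against AL (interval -0.03 to 0.17, adjusted p = 0.488), and 0.01 for KD against DR (interval -0.08 to 0.10, adjusted p = 0.937).

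Its partner in cerebellin complexes, Cbln3 (ENSMUSG00000040380.14, chr14:55878913-55884392), did differ between the restricted and ketogenic diets. Cbln3 stood at 1408, 1554, 1739.9 and 1417 CPM on AL, at 1704, 1709, 1753 and 1671 CPM on DR, and at 1460, 1589.9, 1409 and 1464 CPM on KD. All DR libraries were above all KD libraries, while AL replicate 3 lay among the DR values. Cbln3 fell by 0.21 on the log2 scale on KD against DR (adjusted p = 0.0145 by edgeR, called in 5 of the 8 fits that left out 1 library and lost without DR replicate 3, KD replicate 1 or KD replicate 3). Its log2 fold change on DR against AL was 0.16 (interval 0.03 to 0.29, adjusted p = 0.18), and this comparison was called without AL replicate 3 (adjusted p = 0.0203) and without the low-count filter (adjusted p = 0.0351).

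The ratio of both cerebellin transcripts was computed in each library from RPKM. It was chosen after both genes had been seen and is given without a test. Cbln1 over Cbln3 was 0.661 ± 0.0711 on AL, 0.615 ± 0.0396 on DR and 0.716 ± 0.0395 on KD (SD, n = 4). The KD libraries (0.662 to 0.755) were above the DR libraries (0.562 to 0.65), and the AL libraries (0.582 to 0.737) overlapped both.

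Grid1 (ENSMUSG00000041078.7, plus strand of chr14:34820108-35583379) encodes GluD1, the delta receptor that is more widespread in the brain and in the cerebellar cortex is found mainly outside Purkinje cells. AL libraries had 23.1, 21.99, 23.4 and 24.3 CPM, DR libraries 21.0, 23.3, 22.4 and 23.1 CPM, and KD libraries 26, 24.9, 21.7 and 23.1 CPM. The 3 diets overlapped, with the lowest value in DR replicate 1 and the highest in KD replicate 1. Its fitted log2 fold change was -0.05 on DR against AL (interval -0.18 to 0.08, adjusted p = 0.733 by edgeR), 0.04 for KD against AL (interval -0.09 to 0.18, adjusted p = 0.994) and 0.09 for KD against DR (interval -0.05 to 0.23, adjusted p = 0.495). A coefficient of variation of 4.18% on AL and 4.53% on DR was close to the counting error of 3.44% and 3.54%, at 746 to 999 counts per library. Gm27617 shares 1.53% of its exonic bases at 0.00205 CPM.

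Grid2ip (ENSMUSG00000010825.17, plus strand of chr5:143357338-143392152) encodes delphilin, a scaffold protein of Purkinje cell spines that binds delta receptors. Its values were 181, 172, 189 and 163 CPM on AL, 130.3, 157, 166 and 174 CPM on DR, and 163, 184, 154 and 153 CPM on KD. DR replicate 1 was far below the other libraries, and the other DR values fell within or just below the AL range. The log2 fold change on DR against AL was -0.16 (standard error 0.08, interval -0.32 to -0.003, adjusted p = 0.268 by edgeR), and without DR replicate 1 it was -0.08 (adjusted p = 0.522). KD against AL gave -0.10 (interval -0.23 to 0.02, adjusted p = 0.994). For KD against DR it was 0.06 (interval -0.11 to 0.22, adjusted p = 0.753), which turned to -0.02 without DR replicate 1.

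The spread of Grid2ip between libraries exceeded counting error, as its coefficient of variation was 6.39% on AL, 12.2% on DR and 8.85% on KD, beside at most 1.34% from counting. The gene Gm20635 on the opposite strand shares 9.52% of the exonic bases of Grid2ip and had 1.52 CPM, against a mean of 165 CPM for Grid2ip.

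**Figure D3:**
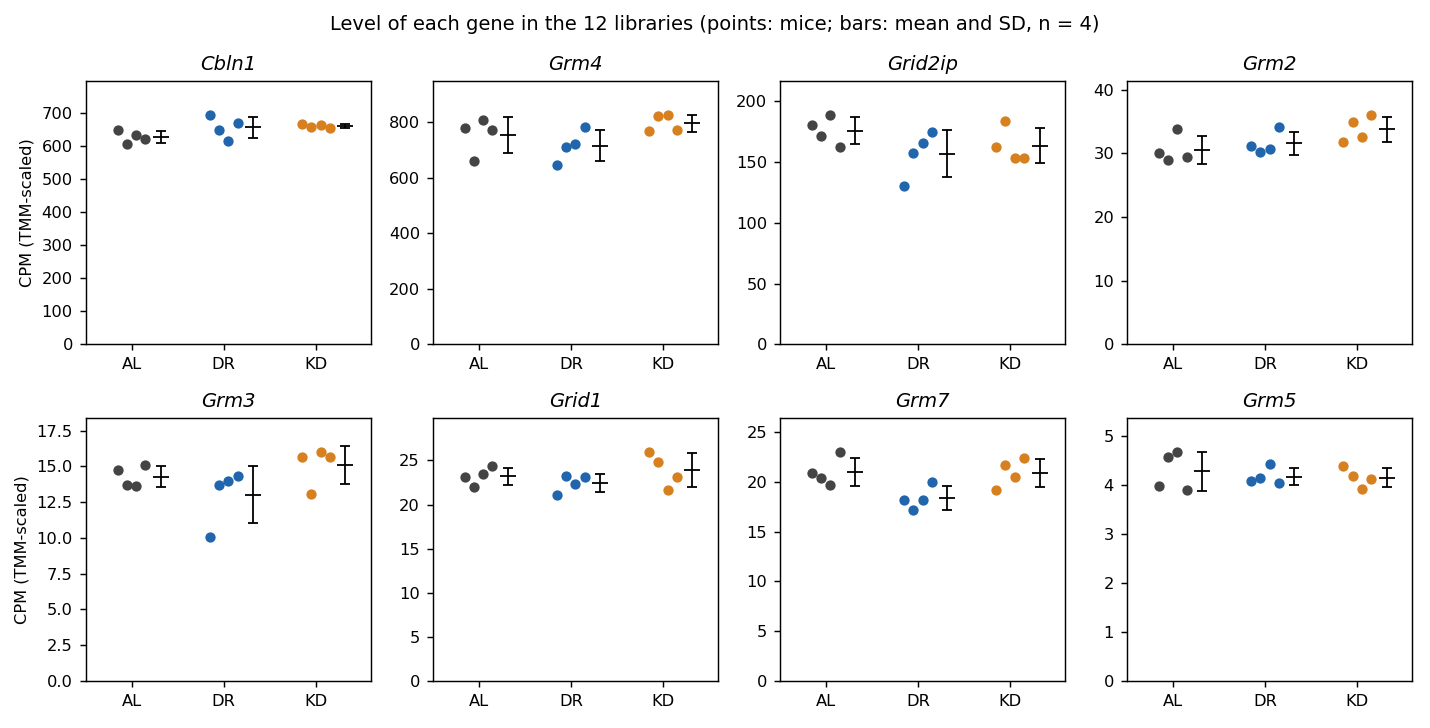
CPM of each gene in the 12 libraries (points, 1 per mouse) with mean and SD (n = 4) per diet, each panel on its own axis from 0. Each pair of diets overlaps for each gene, except KD and AL for Cbln1, whose KD libraries (654 to 667 CPM) are all above the AL libraries (604 to 647 CPM), and the low value of DR replicate 1 shows for Grid2ip (130.3 CPM) and Grm3 (10.1 CPM).

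Grm5 (ENSMUSG00000049583.15, plus strand of chr7:87584168-88134907) is the group I receptor of forebrain neurons and was the least abundant of the 8 genes. It had 3.99, 4.57, 4.68 and 3.9 CPM on AL, 4.09, 4.15, 4.43 and 4.04 CPM on DR, and 4.39, 4.2, 3.91 and 4.12 CPM on KD. All 3 diets overlapped over nearly the same range. With 123 to 177 counts per library, counting alone gives a coefficient of variation of about 8%, and the observed 4.18% on DR and 4.76% on KD were below it. Fitted log2 fold changes were -0.04 on DR against AL (interval -0.27 to 0.20, adjusted p = 0.901 by edgeR), -0.04 for KD against AL (interval -0.27 to 0.18, adjusted p = 0.994) and -0.01 for KD against DR (interval -0.22 to 0.21, adjusted p = 0.983). These were among the widest intervals of the 8 genes.

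Grm2 (ENSMUSG00000023192.12, minus strand of chr9:106643095-106656082) is the group II receptor of Golgi cells, the inhibitory interneurons of the granular layer. AL libraries were at 30.0, 29.0, 33.8 and 29.4 CPM, DR libraries at 31.2, 30.2, 30.7 and 34.2 CPM, and KD libraries at 31.8, 35, 32.5 and 36 CPM. KD values tended to the upper end, but AL replicate 3 and DR replicate 4 lay among them. The log2 fold change for KD against AL was 0.15 (standard error 0.06, interval 0.02 to 0.28, adjusted p = 0.981 by edgeR). It was 0.05 on DR against AL (interval -0.09 to 0.18, adjusted p = 0.755), and 0.10 for KD against DR (interval -0.03 to 0.22, adjusted p = 0.394). The gene Gm28111 on the opposite strand covers 9.6% of its exonic bases at 0.127 CPM.

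Of the 3 Golgi cell markers, 1 was called, on DR against AL and again for KD against DR. The sum of the 3 Golgi markers was 215 to 239 CPM on AL, 262 to 281 CPM on DR and 219 to 252 CPM on KD, of which Lgi2, a secreted synaptic protein, made up the most. Lgi2 rose on DR against AL by 0.37 on the log2 scale (adjusted p = 0.000507 by edgeR) and fell by 0.28 on KD against DR (adjusted p = 0.00244). The other two markers, Slc6a5 and Sorcs3, had log2 fold changes of 0.06 and -0.02 on DR against AL (adjusted p = 0.656 and 0.925) and of -0.01 and -0.02 for KD against DR (adjusted p = 0.956 and 0.917). The part of this in the values of Grm2 was not tested.

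Grm3 (ENSMUSG00000003974.6, minus strand of chr5:9485541-9725170) is the group II receptor of glia as well as of some neurons. Its libraries held 14.7, 13.7, 13.7 and 15.1 CPM on AL, 10.1, 13.7, 14 and 14.3 CPM on DR, and 15.6, 13.1, 16 and 15.7 CPM on KD. DR replicate 1 lay far below the other DR libraries and KD replicate 2 below the other KD libraries. The log2 fold change was -0.14 on DR against AL (standard error 0.10, interval -0.35 to 0.08, adjusted p = 0.523 by edgeR) and 0.08 for KD against AL (interval -0.08 to 0.24, adjusted p = 0.994). For KD against DR it was 0.22 (interval -0.001 to 0.43, adjusted p = 0.27), the largest fitted change among the 8 genes in the 3 comparisons.

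Grm3 depended on single libraries. Without DR replicate 1 its log2 fold change was -0.02 on DR against AL (adjusted p = 0.914) and 0.11 for KD against DR (adjusted p = 0.529), and without KD replicate 2 the latter was 0.28 (adjusted p = 0.17 by edgeR). Astrocyte and Bergmann glia markers (8 genes) summed to 2231 to 2403 CPM on AL, 1994 to 2118 CPM on DR and 2173 to 2309 CPM on KD. The DR libraries were thus below all others, and 2 of the 8 (Hopx and Aqp4) fell on DR against AL. Slc1a3, the most abundant of the 8 at a mean of 1265 CPM, had -0.16 (adjusted p = 0.0749), and Timp4 had 0.18 (adjusted p = 0.34). For KD against DR, Hopx rose by 0.30 and Aqp4 by 0.45 (adjusted p = 0.00316 and 0.00131 by edgeR), the only 2 of the 8 called. Oligodendrocyte precursor markers (3 genes) summed to 46.4 to 58.1 CPM on AL, 37.2 to 46.6 CPM on DR and 48.6 to 53.9 CPM on KD. By the test, 1 of the 3 (Gpr17) was lower on DR against AL and higher for KD against DR, by 0.48 in the latter (adjusted p = 0.00217 by edgeR). The part of these in the values of Grm3 was not tested.

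Grm4 (ENSMUSG00000063239.17, minus strand of chr17:27422387-27521403), the group III receptor of parallel fibre terminals, is made by granule cells. Values were 777, 659.5, 807 and 772 CPM on AL, 644, 712, 723 and 781 CPM on DR, and 767, 821, 824 and 771 CPM on KD. The KD libraries were at the upper end, but DR replicate 4 and 3 of the AL libraries lay among them. For KD against DR the log2 fold change was 0.15 (standard error 0.05, interval 0.04 to 0.27, adjusted p = 0.12 by edgeR), the smallest adjusted p of the 8 genes in the 3 comparisons. The value was -0.08 on DR against AL (interval -0.22 to 0.07, adjusted p = 0.604), and 0.08 for KD against AL (interval -0.04 to 0.20, adjusted p = 0.994).

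Grm4 was not called for KD against DR in the main fit, and it passed the threshold in the following alternatives only. Without DR replicate 4, the highest of its diet, the log2 fold change was 0.20 and the gene was called (adjusted p = 0.0451 by edgeR), and without the low-count filter it was called at 0.16 (adjusted p = 0.0285). Counting error was small here at 0.581% to 0.628%, so the coefficients of variation of 8.57% on AL, 7.87% on DR and 3.93% on KD were spread between libraries. Granule cell markers summed to 3525 to 3742 CPM on AL, 3467 to 3645 CPM on DR and 3653 to 3961 CPM on KD. All KD libraries were thus above all DR libraries, but only 1 of the 6 markers was called for KD against DR. Fat2, a cadherin of granule cells, rose by 0.20 (adjusted p = 0.0257 by edgeR), from 979 ± 51.5 to 1128 ± 57.7 CPM. Slc17a7, Neurod1 and Gabrd had 0.13, 0.08 and 0.05 (adjusted p = 0.175, 0.339 and 0.618). Gabra6 and Rbfox3 were just below 0, at -0.008 and -0.012 (adjusted p = 0.955 and 0.923). The part of this in the values of Grm4 was not tested.

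Grm7 (ENSMUSG00000056755.13, plus strand of chr6:110645581-111567230) is a group III receptor found at the active zone of many synapses, and of the 8 genes it had the smallest adjusted p on DR against AL. It stood at 20.9, 20.4, 19.7 and 23 CPM on AL, at 18.2, 17.2, 18.2 and 20.04 CPM on DR, and at 19.2, 21.8, 20.5 and 22.4 CPM on KD. The DR libraries of replicates 1, 2 and 3 were below all AL and KD libraries, and DR replicate 4 lay among them. The log2 fold change was -0.19 on DR against AL (standard error 0.07, interval -0.34 to -0.04, adjusted p = 0.164 by edgeR) and 0.19 for KD against DR (interval 0.04 to 0.33, adjusted p = 0.142). KD against AL gave a value of -0.001 (interval -0.14 to 0.14, adjusted p = 1). Both comparisons with DR hold the same DR libraries, so they are not separate evidence on Grm7. Gm20387 on the opposite strand shares 2.21% of its exonic bases at 1.18 CPM.

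Grm8, the other group III receptor detected, had 7.42 to 10.6 CPM over all libraries and a log2 fold change of -0.09 on DR against AL, 0.12 for KD against AL and 0.20 for KD against DR (adjusted p = 0.701, 0.994 and 0.321 by edgeR).

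Leaving out each library in turn moved most of these small values. On DR against AL the log2 fold change moved by over 1.5 times, or across 0, in at least 1 such fit for 7 of the 8 genes, and that of Grm7 stayed between -0.23 and -0.14. Grid2ip ran from -0.21 to -0.08, Grm3 from -0.18 to -0.02, Grm4 from -0.14 to -0.02 and Grid1 from -0.07 to -0.01, in each case nearest 0 without DR replicate 1, and so was Cbln1 in its range of 0.04 to 0.10. Grm2 ran from 0.01 without DR replicate 4 to 0.10 without AL replicate 3. For KD against AL 6 of the 8 genes moved by as much, while Grm2 stayed between 0.11 and 0.20 and Cbln1 between 0.06 and 0.10. Among those that moved, Grm4 fell to 0.02 without AL replicate 2 and Grid1 to 0.002 without KD replicate 1. For KD against DR 5 of the 8 moved by as much, and Grm2, Grm4 and Grm7 did not.

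DR replicate 1 was the lowest of its diet in 4 of the 8 genes (Grid1, Grid2ip, Grm3, Grm4) and the highest in 1 (Cbln1). It was not alone in this, since AL replicate 2 was the lowest of its diet in 4 of the 8 and DR replicate 4 the highest of its diet in 5. Over all genes DR replicate 1 stood farthest from its diet, with a median absolute log2 deviation of 0.127, where the other 11 libraries had 0.0856 to 0.122. A gene whose p missed the threshold is not thereby shown to be equal between diets, and the intervals above give the changes that remain possible.

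**Figure D4:**
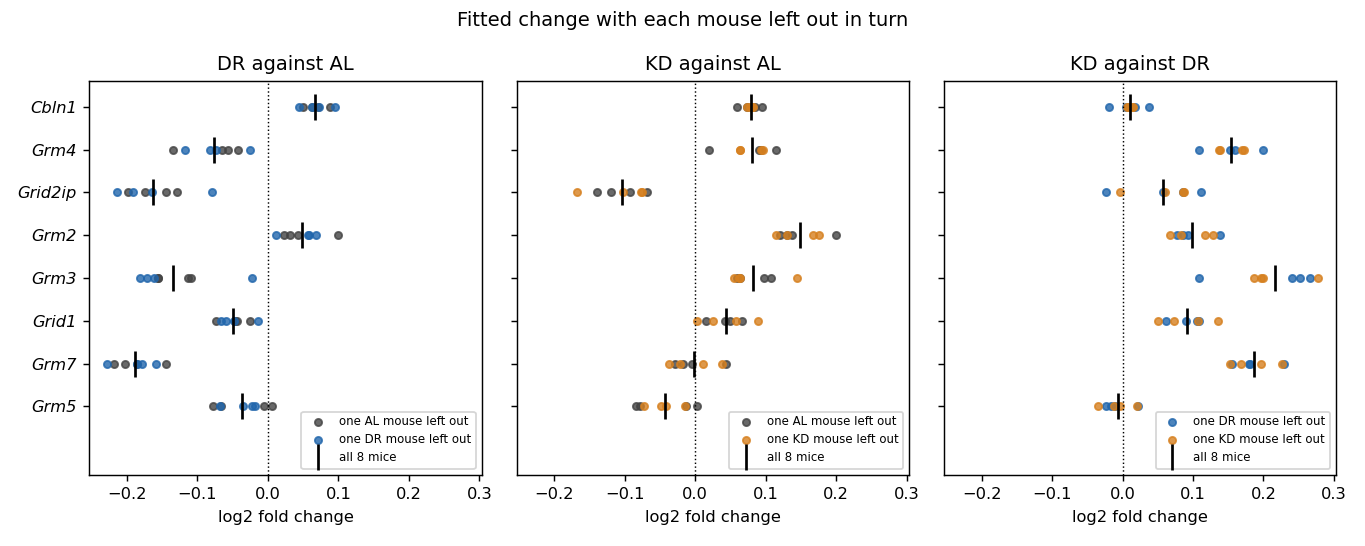
Fitted log2 fold change of each gene in the 3 comparisons with 1 mouse left out at a time (points, coloured by the diet of the mouse left out) beside the value from all 8 mice (vertical bar). On DR against AL the point nearest 0 for Grid2ip (-0.08), Grm3 (-0.02) and Grm4 (-0.02) is the fit without DR replicate 1, and Grm7 stays between -0.23 and -0.14.

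Genes that work with these receptors were taken from 5 lists, chosen with earlier results of these data known. Their shares of called genes are therefore not a test of the lists. On DR against AL, 2 of the 13 tested trans-synaptic partners were called, both lower, where 1.74% of all genes tested were called lower: Adgrb2, an adhesion G protein-coupled receptor, fell by 0.32 on the log2 scale (103 ± 9.95 CPM on AL and 82.6 ± 10.2 on DR, SD, n = 4), and Shank2, a postsynaptic scaffold of Purkinje cells, fell by 0.26 (442 ± 12.2 and 369 ± 31.8 CPM). Their calls held in 2 of 8 and 4 of 8 fits that left out 1 library, for Adgrb2 without AL replicate 4 or DR replicate 2 and for Shank2 without AL replicate 2 or 3 or DR replicate 1 or 4. The call on Adgrb2 was also lost with library size only and with the filter of a mean of 10 CPM (adjusted p = 0.0563 in both by edgeR). Over left-out libraries the list had 0 to 1 genes called, and over the other settings 1 to 3. The neurexins, to which Cbln1 binds, were represented by Nrxn2 and Nrxn3, with log2 fold changes of -0.06 and -0.06 (adjusted p = 0.613 and 0.536 by edgeR). The list median was -0.08, beside 0.004 for all genes.

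In the group I receptor cascade, 1 of 13 genes was called lower on DR against AL, where 1.74% of all genes tested were. All 13 had a log2 fold change below 0, with a median of -0.10 (0.004 for all genes), although Gna11 stood at -0.009 and scaling by library size alone moved the median of all genes from 0.004 to 0.025. The called gene was Car8, which binds the inositol trisphosphate receptor and fell by 0.24 (adjusted p = 0.0327 by edgeR). Its call held in 3 of 8 fits that left out 1 library (without AL replicate 3 or DR replicate 1 or 4). Itpr1, that receptor itself, had -0.22 (adjusted p = 0.0869) and Homer3 -0.16 (adjusted p = 0.111). The authors of the study counted Itpr1, Car8 and Rgs8 among the genes lower on DR in their own edgeR test. Purkinje cell markers share Car8 and Rgs8 with the cascade list. Their sum was 3814 to 4036 CPM on AL, 3224 to 3660 CPM on DR and 3846 to 3933 CPM on KD. All DR libraries were thus below the others, with 1 of the 7 (Car8) called and all 7 below 0 on DR against AL. Rgs8 (1550 CPM on AL and 1367 on DR) and Car8 (1153 and 973 CPM) were the most abundant of the 7 and weigh most in the sum. The marker list, too, was chosen with earlier results of these data known. Calb1 and Slc1a6 had -0.15 and -0.14 (adjusted p = 0.0796 and 0.179 by edgeR). Pcp2, Pcp4 and Ppp1r17 had -0.04, -0.07 and -0.07 (adjusted p = 0.789, 0.698 and 0.523). The part of this in the values of Grid2ip and the cascade was not tested.

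The coupling list of group II and III receptors, which holds G proteins, adenylyl cyclases and potassium channels, had 0 of 15 called on DR against AL, with a median of -0.06. Genes of glutamate release and clearance had 0 of 7 called, with a median of -0.04. Over left-out libraries the coupling list had 0 called and the release and clearance list 0 to 1. Over the other settings they had 0 to 1 and 0 to 2. Over the 5 lists, 3 of 50 tested genes were called on DR against AL by edgeR, beside 3.06% of all genes tested. An unadjusted p under 0.05 was held by 15 of the 50 (30%), beside 18% of all genes tested. As the lists were chosen with earlier results of these data known, these shares do not test them. For KD against AL 0 genes of the 5 lists were called, and 3 of their 50 tested genes (6%) were under that p, beside 4.87% of all genes tested. For KD against DR it was 15 of 51 (29.4%), beside 18.7%. Both comparisons with DR hold the same DR libraries.

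For KD against DR 5 of 51 tested genes of these lists were called, Cbln3 among them, beside 4.94% of all genes tested. Shank2 rose by 0.20 (1 of 13 trans-synaptic partners) and Car8 by 0.24 (1 of 13 cascade genes). Adcy8, a calcium-stimulated adenylyl cyclase, rose by 0.32 from 35.2 ± 5.17 CPM on DR to 43.9 ± 1.75 CPM on KD (1 of 16 coupling genes). Glul, the glutamine synthetase of astrocytes, fell by 0.23 from 1051 ± 72.6 to 897 ± 20.5 CPM (1 of 7 genes of release and clearance). Adjusted p were 0.0457, 0.0164, 0.0306 and 0.0141 by edgeR in this order, and the calls held in 1, 6, 1 and 7 of 8 fits that left out 1 library. The call on Shank2 was also lost with library size only (adjusted p = 0.0525) and with the filter of a mean of 10 CPM (adjusted p = 0.0529). Those of Shank2 and Adcy8 held without DR replicate 4, while that of Car8 was lost without DR replicate 3 or KD replicate 3 and that of Glul without DR replicate 3.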

How the data were processed

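The study sequenced poly(A) RNA of 12 mouse libraries, 4 per diet. According to the submitters' processing notes, the authors trimmed reads with Trimmomatic (version 0.39), aligned them with STAR (version 2.7.0f), with GRCm38.p6 as the reference, and assigned them to genes with featureCounts of Subread (version 1.6.4). The deposited table holds raw counts for 54752 genes with the gene length and exon positions; strand was not stated for the counting, so where genes overlap in antisense their reads cannot be told apart.

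Libraries were assigned to diets by their labels and numbered within a diet in accession order. Symbols were matched for 54723 gene IDs from GENCODE names, and coordinates are those of the table. In R 4.3.3 with edgeR 4.0.16, genes under a count of 10 or a total of 15 were dropped by filterByExpr, TMM gave the library scaling, and glmQLFTest gave the quasi-likelihood p, from 1 fit on 8 libraries per pair of diets and no covariate, with Benjamini-Hochberg adjustment over all genes tested and a threshold of 0.05. Intervals are 95% intervals of the fitted log2 fold change. CPM used TMM-scaled library sizes, log2 CPM a prior count of 2, and RPKM the exonic length of the table. The precision of a level was set by 123 to 31527 counts per gene and library, and counting errors cover counting only. The fits were tested on simulated data, with 50 genes changed at each size. In the order DR against AL, KD against AL and KD against DR, a 2-fold change was called in 42, 44 and 45 of 50. A 1.25-fold change was called in 16, 23 and 32 of 50, and a 0.8-fold change in 25, 24 and 19 of 50. False calls numbered 9, 15 and 8. Small changes were thus often missed in these simulations. The changed genes were drawn at random from all genes tested, at any level, so the shares are not specific to the 8 genes.

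Alternatives were other size factors, library size only, no filter, a mean of at least 10 CPM, DESeq2 1.42.0, 1 fit over all libraries, and leaving out each library. Named were all 8 genes, and the genes called in each of 5 pathway lists. Genes most like a called gene were to be named too, but none of the 8 was called. Genes, pathway lists and marker lists were chosen with earlier results of these data known. Some genes of the pathway lists are not reported here and were left out of the list counts.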

Additional observations from a re-analysis of the deposited data

Results flagged for a closer look

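Each of the 8 genes was examined within each diet for 1 library far from the other 3, in 24 groups of 4 libraries, and 2 groups had such a library, both for Grm3. Chance alone marks about 1 group in 20. On DR, Grm3 in replicate 1 had 10.06 CPM (394 counts), where the other DR libraries had 13.7, 13.98 and 14.3 CPM. On KD, Grm3 in replicate 2 had 13.07 CPM (458 counts), where the other KD libraries had 15.6, 16.01 and 15.7 CPM. The 4 AL libraries of Grm3 lay between 13.7 and 15.1 CPM.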

How the results depend on the processing

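Of 333 refitted log2 fold changes of the 8 genes, 317 kept their direction and their side of the threshold, 3 passed it and 13 changed sign, and 18 of the 24 results changed sign under no alternative run. Called genes numbered 1 instead of 0 without the low-count filter on DR against AL (Grid2ip, -0.17, adjusted p = 0.0363 by edgeR) and for KD against DR (Grm4, adjusted p = 0.0285), and 1 for KD against DR without DR replicate 4 (range 0 to 1 over the fits that left out a library). The cause was not tested. Signs turned for values near 0. Grm7 for KD against AL was 0.001 without the filter, 0 with DESeq2 and -0.037 to 0.044 over left-out libraries, and Cbln1 for KD against DR was -0.01 with library size only and -0.019 to 0.038 over left-out libraries. Over left-out libraries Grm5 ran from -0.078 to 0.006 (DR against AL), -0.084 to 0.002 (KD against AL) and -0.035 to 0.022 (KD against DR), and Grid2ip from -0.023 to 0.111 (KD against DR). In alternatives added after seeing the data, Cbln3 ran from -0.084 to 0.023 for KD against AL. Grm5 was not tested under the filter of a mean of 10 CPM.

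Genes called over the whole table on DR against AL numbered 1258 without the filter, 1012 with DESeq2 and 235 to 712 over left-out libraries, against 583. For KD against AL they were 118, 10 and 0 to 6, against 0, and for KD against DR 1503, 1338 and 467 to 946, against 942. With library size only, 57% of calls on DR against AL were higher (43.2% with TMM) and 37.9% for KD against DR (49.2%). The calls of the group I cascade ranged from 0 to 4 (DR against AL) and 0 to 3 (KD against DR) over left-out libraries. No paired analysis was possible because the labels give no replicate numbers shared between diets. Depth limits Grm5 most, with 123 to 177 counts per library.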

Other observations

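Transporters that clear glutamate at the same synapses gave the following values. Slc1a3 (GLAST, the transporter of Bergmann glia) stood at 1324 ± 41.9 CPM on AL, 1184 ± 47.5 CPM on DR and 1287 ± 36.6 CPM on KD (SD, n = 4). Its DR libraries were all below those of both other diets, with a log2 fold change of -0.16 on DR against AL (adjusted p = 0.0749 by edgeR) and 0.12 for KD against DR (adjusted p = 0.142). Slc1a6, the transporter of Purkinje cells, had -0.14 and 0.09 in the same comparisons (adjusted p = 0.179 and 0.292). Slc1a2, the main transporter of astrocytes, had -0.05 and 0.02 (adjusted p = 0.549 and 0.867). The authors of the study counted Slc1a3 among the genes lower on DR in their own edgeR test.

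C1ql1, the cerebellin relative that climbing fibres release and whose cell bodies lie outside the dissected piece, was near the limit of detection at 1.31 ± 0.328 CPM on AL, 0.802 ± 0.368 CPM on DR and 0.961 ± 0.231 CPM on KD (adjusted p = 0.22 on DR against AL and 0.994 for KD against AL).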
